A study of Homo sapiens with 2 samples.

Results

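GATA2, GATA3 and GATA6 encode zinc finger transcription factors, and each of them has a neighbour on the other strand that is named as its antisense RNA and starts close to it. These 6 genes, GATA2, GATA2-AS1, GATA3, GATA3-AS1, GATA6 and GATA6-AS1, were chosen by name, with no threshold on their counts, though earlier results of these data were known, and all 6 are among the 64081 genes in the deposited counts. The counts come from LNCaP, an androgen-sensitive human prostate carcinoma cell line. Cells were kept for 48 h in RPMI-1640 in which charcoal stripped FBS (10%) took the place of normal FBS, with 10 mM HEPES and without androgen. For 2 biological replicates, both of this 1 condition, poly(A)+ RNA was sequenced from both ends in a way that retains the strand. The authors deposited 1 count per gene for both replicates together, so no value has a replicate error, and every interval given is a 95% interval that covers counting error only.

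GATA factors bind DNA sequences built around the letters that give the family its name. GATA2 is known for maintaining blood stem and progenitor cells and, in prostate cells, for acting with FOXA1 and other factors at enhancers. GATA3 directs T helper 2 and luminal epithelial fates, and GATA6 acts in the formation of endoderm and heart. Many developmental transcription factor genes have a divergent partner, a noncoding RNA that starts near the same promoter and is transcribed away from it. Poly(A)+ libraries that keep the strand can in principle assign reads to either partner.

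The strand to which a listed count belongs has to be stated first. The libraries were mapped as type fr-secondstrand, in which read 1 carries the strand of the RNA. For counting stranded paired-end data, however, the methods name the reverse setting, under which read 1 is taken to lie opposite to the gene. With both settings, a count listed for GATA2 comes from RNA of the strand of GATA2-AS1, and a count listed for GATA2-AS1 comes from RNA of the strand of GATA2. The deposited table does not itself name its settings, and "listed count" therefore means the number beside the gene's identifier, whichever strand it came from. At TUBA1B, 19 were listed beside 28150 for TUBA1B-AS1, and at HNRNPK, 3 beside 8075 for HNRNPK-AS1. At ATG10, 10901 were listed beside 16 for ATG10-AS1. That pair shares no exonic nucleotide, whereas TUBA1B shares 1571 with TUBA1B-AS1 and HNRNPK shares 309 with HNRNPK-AS1. These pairs were picked after the counts were seen and are not a balanced sample. Over all pairs of a protein-coding gene and its named antisense gene with unequal counts, the antisense gene was listed higher in 50.2%. That share includes pairs with few counts. It was 54.3% with a summed count of at least 10 and 58.5% with at least 50. The strand of the counts was not tested. On genes, 9495309 read pairs were counted, 6.39% of those placed uniquely, while 93.5% were assigned to no feature. At least 10 counts were listed for 44.2% of 19404 protein-coding genes. Of 8 markers of luminal prostate cells, 7 had as many (range 8 for HOXB13 to 6947 for KRT8), and of 7 markers of endothelial cells, fibroblasts and leukocytes with a row, 2 did (range 0 for CD3E to 49 for LYZ, with 13 for VIM). KLK3, which encodes prostate-specific antigen, had a listed count of 18. With both settings these marker counts come from the strand opposite to each gene, and are then no check of the cell type. Of the exonic length of KRT8, 525 nt lie opposite exons of other genes.

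The sequences between the start sites show how close the partners of each locus lie. For each locus the stretch between the nearest pair of annotated start sites that point away from each other is printed below from GRCh37, the build the study calls hg19, on the strand of the GATA gene and 5′ to 3′. Capitals mark matches to CCAAT or to GGGCGG on either strand, letters found in many promoters.
GATA2, chr3:128207878-128208054, minus strand: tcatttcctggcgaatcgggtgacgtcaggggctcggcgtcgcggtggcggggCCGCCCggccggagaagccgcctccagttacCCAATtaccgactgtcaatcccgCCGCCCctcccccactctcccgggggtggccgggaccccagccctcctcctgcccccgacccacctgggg
GATA3, chr10:8095448-8095566, plus strand: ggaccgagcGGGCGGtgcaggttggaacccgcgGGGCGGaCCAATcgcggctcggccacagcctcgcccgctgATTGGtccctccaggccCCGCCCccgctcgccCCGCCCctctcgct
GATA6, chr18:19749414-19749549, plus strand: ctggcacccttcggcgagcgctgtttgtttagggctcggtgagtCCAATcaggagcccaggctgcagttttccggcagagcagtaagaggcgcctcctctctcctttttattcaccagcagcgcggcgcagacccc

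The start sites were 177 nt apart at GATA2, 119 nt at GATA3 and 136 nt at GATA6. The stretch at GATA3 had the highest GC content, 77.3%, with 16 CpG dinucleotides and 4 matches to GGGCGG. The stretch at GATA2 had 72.9% GC, 18 CpG and 2 such matches. The stretch at GATA6 had 61.0% GC, 9 CpG and no such match. Windows of the same length directly upstream of 19388 protein-coding genes had a median of 8 CpG for the length used at GATA3 and of 9 for that at GATA6, and the 19387 windows of the length at GATA2 had a median of 11. CCAAT occurred once at GATA2, at position 85, and once at GATA6, at position 45, and 2 times at GATA3, at 41 and 74, counted from 1 at the 5′ end of each printed stretch. Of the windows of the same lengths, 27.3%, 23.8% and 22.1%, for the lengths at GATA2, GATA6 and GATA3, hold CCAAT on either strand, and 45.6%, 42.5% and 40.6% hold GGGCGG. Neither GATA, the core of the sites that GATA factors bind and searched for later than the other motifs, nor its longer form GATAA nor TATAAA occurs on either strand of the 3 stretches. Of the windows of the lengths at GATA2, GATA6 and GATA3, 30.9%, 24.4% and 21.3% hold GATA, 12.8%, 9.59% and 8.20% hold GATAA, and 7.28%, 6.13% and 5.61% hold TATAAA. A match is a match of letters only. None of the stretches lies in an exon of the GATA gene, but the whole of that at GATA6 lies in an exon of the GATA6-AS1 transcript GATA6-AS1-208.

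**Figure D1:**
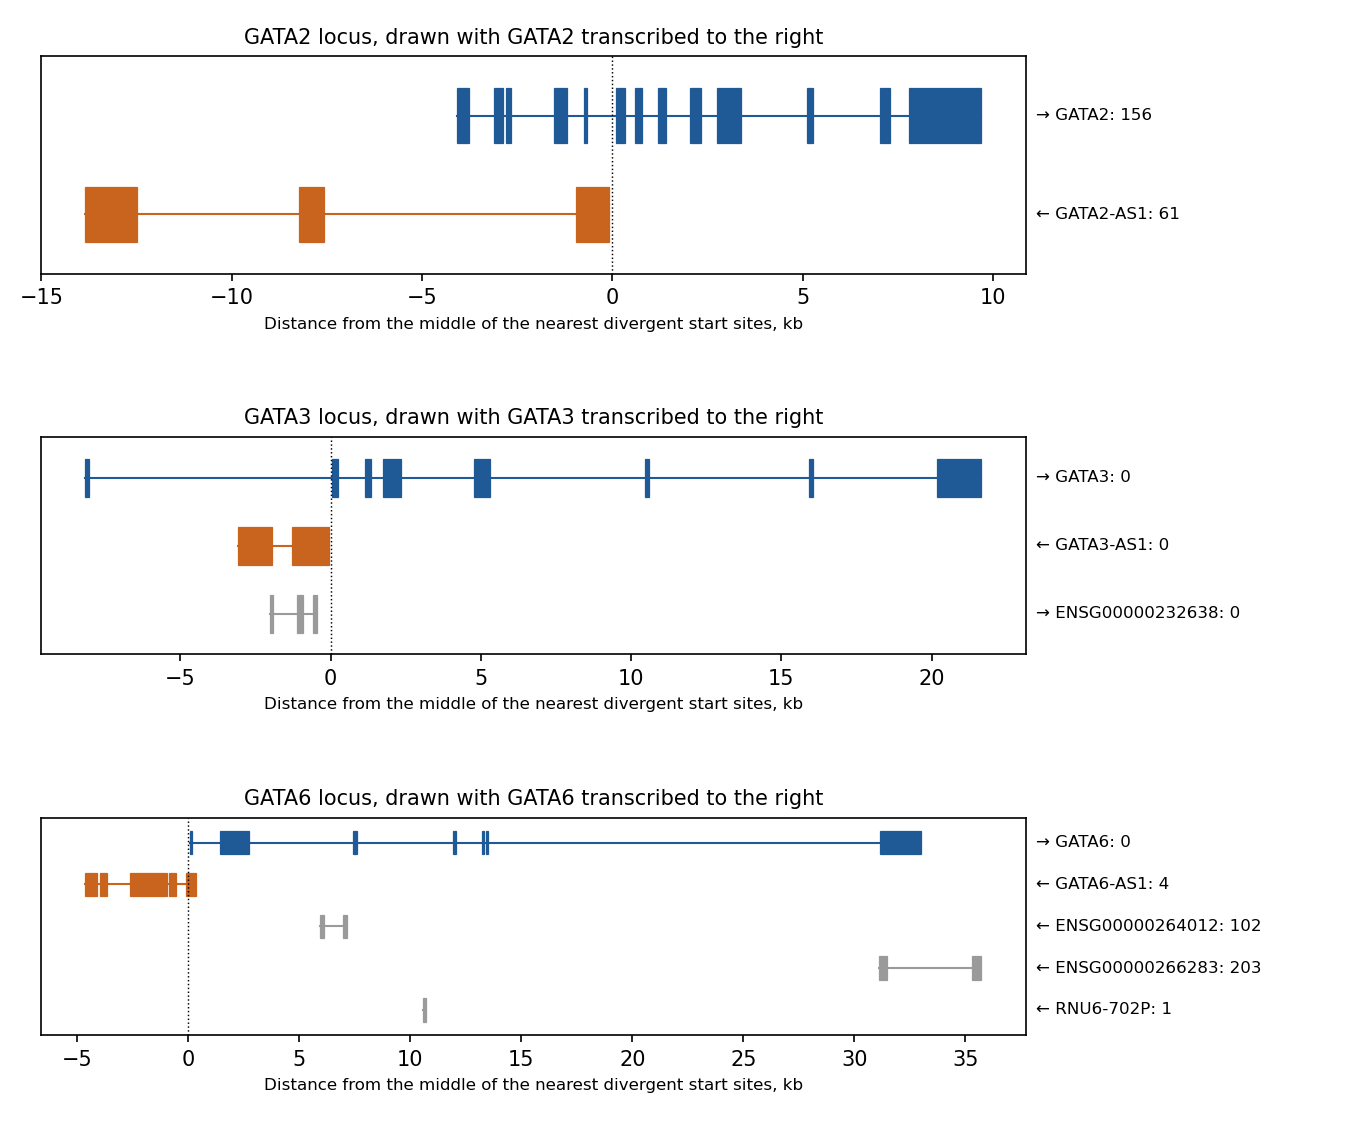
Exons (boxes) of each GATA gene (blue), its named antisense gene (orange) and other genes in the locus (grey), each from all annotated transcripts joined, against distance in kb from the middle of the nearest divergent start sites; arrows at the right give the direction, with the listed count. GATA2-AS1 and GATA3-AS1 lead away from a start site inside the body of the GATA gene, and 2 genes opposite GATA6 carry 102 and 203 counts beside 0 for GATA6 itself.

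Of the 6 genes, only the 2 of the GATA2 locus reached 10 listed counts. GATA2 did so as 44.2% of protein-coding genes did, and GATA2-AS1 as 28.4% of 12805 lncRNA genes did. GATA2 had the highest listed count, 156 (exact Poisson interval 132.5 to 182.5). GATA2-AS1 followed with 61 (46.7 to 78.4) and GATA6-AS1 with 4 (1.09 to 10.2). GATA3, GATA3-AS1 and GATA6 had 0. A count of 0 allows up to 3 counts by the one-sided 95% limit (the two-sided interval reaches 3.69), and 3 counts are 0.316 CPM (counts scaled to a library of 1000000 pairs counted on genes), and the interval of GATA6-AS1 overlaps that range. Per kb of exonic length GATA6-AS1 had 1.22 listed counts (0.331 to 3.11), below the 31.7 of GATA2 and the 21.0 of GATA2-AS1 beyond counting error. The 4 genes of the GATA3 and GATA6 loci could not be ordered among themselves. A count of 0 was also listed for 26.3% of protein-coding genes and 50.6% of lncRNA genes.

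**Figure D2:**
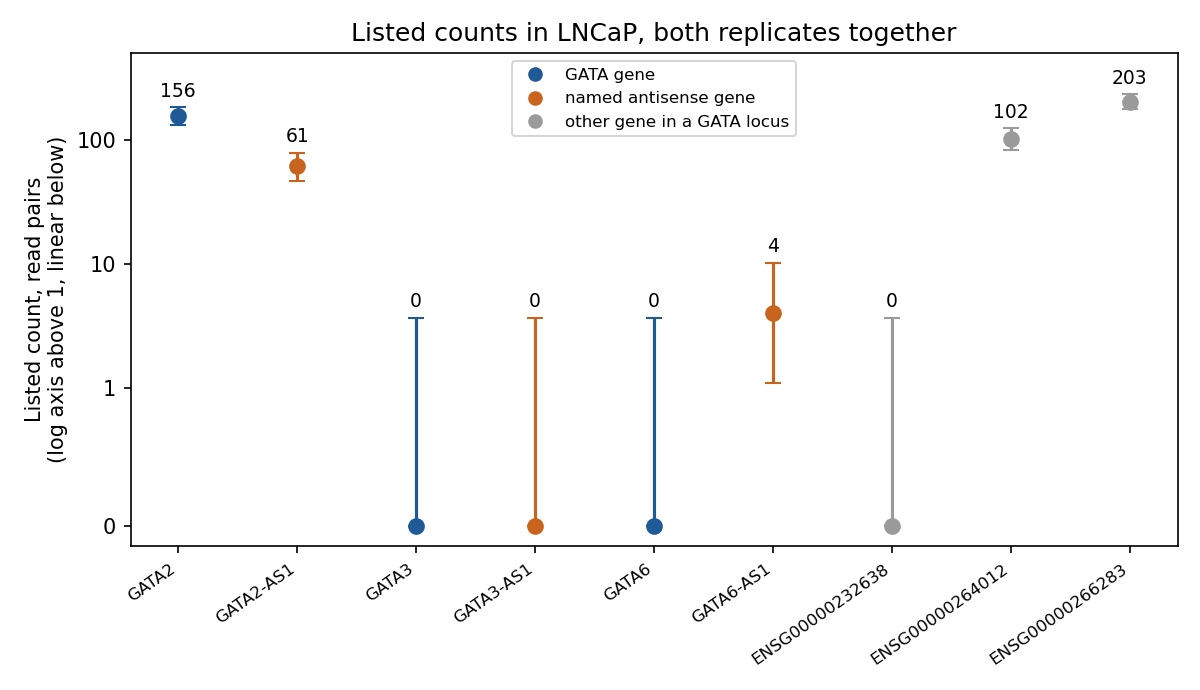
Listed counts (points) with exact Poisson 95% intervals (bars) of the 6 genes and of 3 further genes in their loci, both replicates together; the vertical axis is logarithmic above 1 and linear below. GATA2 (156) and GATA2-AS1 (61) have intervals that do not overlap, whereas the interval of GATA6-AS1 (4) overlaps those of the genes at 0.

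GATA2 lies on the minus strand of chromosome 3 from 128198270 to 128212044, with 13 annotated transcripts from 10 start sites. GATA2-AS1 lies on the plus strand from 128208055 to 128221813, with 4 transcripts. The gene bodies overlap over 3990 nt, since some GATA2 transcripts start upstream of the first exon of GATA2-AS1. In exons the partners share only 78 nt, from 128208627 to 128208704, which is 1.59% of the exonic length of GATA2 and 2.69% of that of GATA2-AS1. These 78 nt belong to 1 GATA2 transcript, GATA2-212, where they are untranslated, and to all 4 transcripts of GATA2-AS1. Nearly all of the exonic length of GATA2 (4915 nt) thus has no annotated exon of any gene opposite to it.

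The listed count of GATA2 was 71.9% of the sum of 217 for both partners (exact binomial interval 65.4% to 77.8%), and that of GATA2-AS1 28.1% (22.2% to 34.6%). The ratio of the count listed for GATA2 to that listed for GATA2-AS1 was 2.56 (1.89 to 3.50). If each count comes from the opposite strand, the pairs from the strand of GATA2 were instead 0.391 times those from the strand of GATA2-AS1 (0.286 to 0.529). Per kb of exonic length they were 0.662 times (0.484 to 0.895). Each strand was then counted on exons of the other partner, and the partners share only 78 exonic nt. These values are therefore no ratio of GATA2 RNA to GATA2-AS1 RNA. The genes differ in length, however, and the per-length difference was smaller. Per kb of exonic length, GATA2 had 31.7 listed counts (27.0 to 37.1) and GATA2-AS1 21.0 (16.1 to 27.0), a ratio of 1.51 (1.12 to 2.07). With the longest transcript of each gene as its length, 3798 nt for GATA2-207 and 1655 nt for GATA2-AS1-204, an alternative that was not among the planned ones, the ratio was 1.11 (0.824 to 1.52), or 0.897 (0.656 to 1.21) if the strands are turned, so the order of the partners per length was then within counting error. The counts correspond to 16.4 CPM for GATA2 and 6.42 CPM for GATA2-AS1. These values rest on the library size used, and were 31.9 and 12.5 CPM without the 3 highest genes in it and 1.05 and 0.410 CPM over all uniquely placed pairs. Of protein-coding genes, 10.1% had a higher listed count than GATA2, and of lncRNA genes, 14.8% had a higher one than GATA2-AS1.

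GATA3 lies on the plus strand of chromosome 10 from 8087341 to 8117161, and GATA3-AS1 on the minus strand from 8092413 to 8095447, wholly inside the body of GATA3. The partners share no exonic nucleotide. Both rows of this locus were at 0, so no share can be given. Another gene of the locus, ENSG00000232638, lies on the strand of GATA3 from 8093504 to 8095047, with 361 of its 402 exonic nt opposite exons of GATA3-AS1, and it was also at 0. The GATA3 locus thus had no pair listed for any of these genes. In the annotation used here GATA3 has 3396 exonic nt and GATA3-AS1 2372 nt, and the exons the authors counted on may differ. The floor of 3 counts corresponds to 0.883 counts per kb for GATA3 and to 1.26 for GATA3-AS1, against the 31.7 and 21.0 of the GATA2 partners.

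GATA6 lies on the plus strand of chromosome 18 from 19749550 to 19782491, and GATA6-AS1 on the minus strand from 19744847 to 19749839, with 14 annotated transcripts. The partners share 94 exonic nt, the whole of the first exon of transcript GATA6-201 (19749550 to 19749643), which is untranslated, and 1 transcript of GATA6-AS1, GATA6-AS1-208, covers them. All 4 counts of the pair were listed for GATA6-AS1, a share of 100% with an exact binomial interval of 39.8% to 100%. If each count comes from the opposite strand, the strand of GATA6-AS1 held 0% instead (0% to 60.2%), counted on exons of GATA6. At this depth the order of the partners was not detectable.

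The GATA6 locus holds 2 further lncRNA genes on the minus strand, opposite GATA6, and these had far higher counts than GATA6-AS1. ENSG00000264012 (19755426 to 19756623) lies between exons of GATA6 and shares no exonic nucleotide with it. It had a listed count of 102 (exact Poisson interval 83.2 to 123.8), or 284 counts per kb of its 359 exonic nt (232 to 345). ENSG00000266283 (19780582 to 19785192) overlaps the 3′ end of GATA6, with 321 of its 770 exonic nt opposite the last exon, 165 of them opposite coding sequence. It had 203 counts (176.0 to 232.9), or 264 per kb (229 to 303). Per kb, the intervals of these genes overlap each other and lie above those of GATA2 and GATA2-AS1. Of lncRNA genes, 11.7% had a higher count than ENSG00000264012 and 8.15% a higher one than ENSG00000266283. A snRNA pseudogene on the same strand, RNU6-702P, had 1 count.

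Together the 4 rows opposite GATA6 held 310 counts (276.4 to 346.5), 32.6 CPM, and GATA6 held none. With the settings named above, these pairs come from RNA of the plus strand, that of GATA6. In a comparison added after the counts of this locus were seen, protein-coding genes were searched for rows opposite their body. Among 1681 that were at 0 and had at least 1 row opposite their body, 184 (10.9%) had opposite rows with a sum as high as at GATA6, and the median sum was 7, beside 36 over all 10010 genes with such a row. The search was limited to genes at 0 because GATA6 was at 0, so this share is a description. By contrast, the rows opposite the body of GATA2 summed to 61, all on GATA2-AS1, and those opposite GATA3 to 0. The counts of ENSG00000264012 and ENSG00000266283 were taken up because they lie in the locus, by the rule on neighbours, and not because of their size. The only other gene within 10000 nt of any of the 6 genes, DNAJB8-AS1, lies beyond the 3′ end of GATA2 and was at 0.

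The pairs were then set beside the other antisense pairs of the annotation. By name, position and a protein-coding sense gene, 1719 pairs on opposite strands were found, of which 740 were divergent, with start sites at most 5000 nt apart, the 3 GATA pairs included. The sense gene had the higher listed count in 50.1% of the divergent pairs with unequal counts (344 of 686), as at GATA2, and the antisense gene in 49.9%, as at GATA6. Over all 1719 pairs, divergent or not, the antisense gene was listed higher in 50.2% of those with unequal counts. If the strands are turned, the strand of the antisense gene held more in 49.8%, each strand then being counted on exons of the other partner. Both partners had at least 10 counts in 33.9% of divergent pairs, as at GATA2, and both were at 0 in 6.35% (47 pairs), as at GATA3. The median listed count over divergent pairs was 14 for the sense gene and 11 for the antisense gene, so both partners at GATA2 were above, and those at GATA3 and GATA6 below, these medians.

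Divergent pairs were also divided by the number of exonic nucleotides the partners share. The antisense gene was listed higher in 42.7% of 225 unequal pairs without shared exonic nucleotides (exact binomial interval 36.1% to 49.4%), in 41.8% of 91 pairs with 1 to 100 shared (31.5% to 52.6%), and in 56.2% of 370 pairs with over 100 shared (51.0% to 61.3%). In pairs that are not divergent the corresponding shares were 41.9%, 52.0% and 57.8%. If each count comes from the opposite strand, the strand of the antisense gene held more in 57.3%, 58.2% and 43.8% of divergent pairs. For the others these shares are 58.1%, 48.0% and 42.2%. The class with over 100 shared nucleotides then has the lowest share in place of the highest. Pairs of genes are not replicates, so these shares are a description and their differences were not tested. The GATA2 and GATA6 pairs belong to the second of these classes and the GATA3 pair to the first. In the class of GATA2, 27.1% of 96 pairs had at least 10 counts on both partners, and 3 pairs, GATA2 among them, had counts at or above those of GATA2 and GATA2-AS1 on both. In the class with over 100 shared nucleotides, 45.5% of 391 pairs had at least 10 counts on both.

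**Figure D3:**
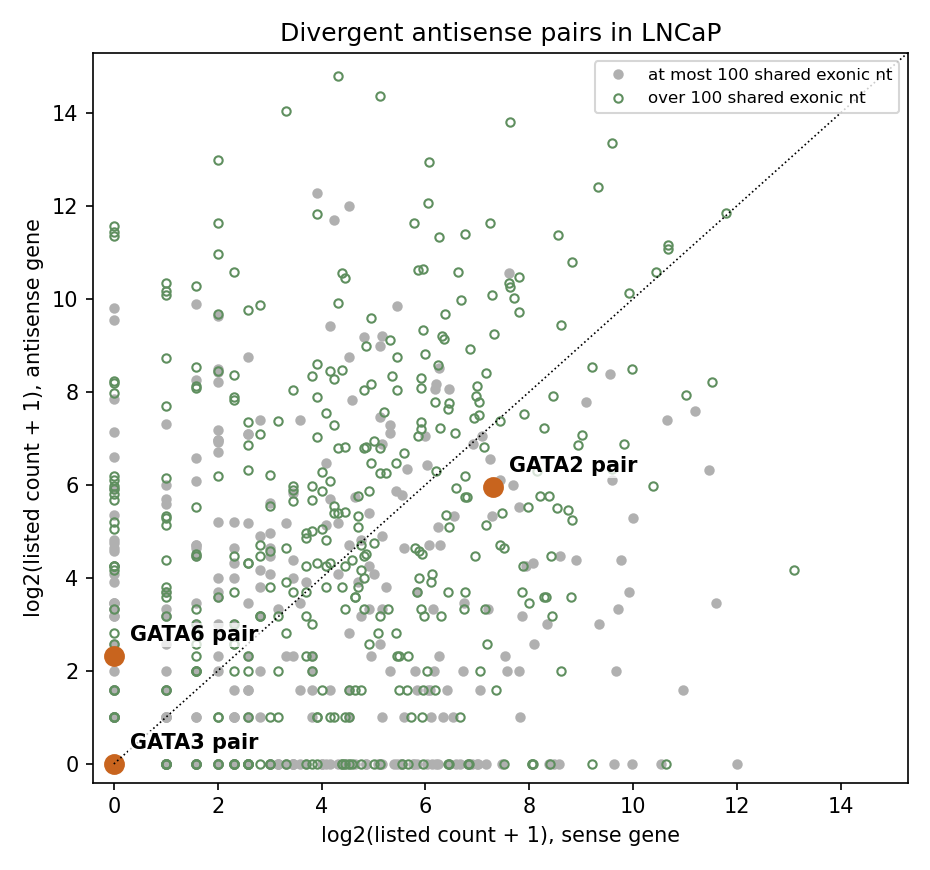
Each point is 1 of 740 divergent pairs, with log2(listed count + 1) of the sense gene on the horizontal and of the antisense gene on the vertical axis; filled grey points share at most 100 exonic nt, open green points more, and the dotted line marks equal counts. The GATA2 pair lies below the line among pairs with counts on both partners, the GATA6 pair on the left edge and the GATA3 pair at the origin, where 47 pairs lie.

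The antisense pairs with listed counts most like those of each GATA locus were found by the distance of log2(count + 1) of both rows, over 1729 other pairs. For GATA2 these were ZSCAN5A with ZSCAN5A-AS1 (156 and 59), NAALADL2 with NAALADL2-AS1 (150 and 61) and ATP1B3 with ATP1B3-AS1 (171 and 68). The first shares 578 exonic nt and the others none. For GATA3, 118 other pairs were equally near, both partners at 0, so no pair is singled out. For GATA6, 4 other pairs had the same counts of 0 and 4, among them ARHGEF3 with ARHGEF3-AS1, GYG2 with GYG2-AS1 and TRDN with TRDN-AS1.

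Among 11 listed genes with a GATA-type zinc finger, a list that does not hold every such gene, GATA2 had the highest listed count. If each count comes from the opposite strand, this is the order of the strands opposite to these genes. The row for the strand of GATA2 is then the 61 of GATA2-AS1, and that for the strand of TRPS1 the 62 of TRPS1-AS1. Those counts lie on exons of the antisense genes, which share 78 nt with exons of GATA2 and 0 nt with those of TRPS1. They do not measure GATA2 or TRPS1, so these genes cannot be ordered by them. GATA2 is then not shown to be the highest. Of these 11, 5 had at least 10 counts (45.5%, beside 44.2% of protein-coding genes), with a median of 2 beside 6 for all protein-coding genes. Of the other factors of the classical family, GATA1, which drives red cell and megakaryocyte development, had 19 (exact Poisson interval 11.4 to 29.7). GATA4 and GATA5, which act with GATA6 in heart and gut, had 1 each. GATAD1, which encodes a chromatin-associated protein, had 85 (67.9 to 105.1), TRPS1, an atypical family member that acts as a repressor, 18, and GATAD2A, a subunit of the NuRD complex, 14. GATAD2B, the partner subunit, had 2, and ZGLP1 was at 0. Per kb of exonic length the order at the top was the same, with 31.7 for GATA2, 13.4 for GATAD1 and 12.2 for GATA1.

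Among 13 genes that encode partners of GATA factors, 7 had at least 10 listed counts (53.8%, beside 44.2% of protein-coding genes). ZFPM2, which encodes the cofactor FOG2, had 728 (676.1 to 782.9), or 90.6 per kb, and ZFPM1, which encodes FOG1, had 62, or 10.1 per kb. The coactivator genes EP300 and CREBBP had 64 and 19. Of the genes of the blood complex that GATA1 and GATA2 form with LIM-domain proteins, LMO2 was at 0, LDB1 had 1, TAL1 had 3 and LYL1 had 51. Of the regulators and coactivators of transcription known from prostate cells, 3 of 10 reached 10 counts (30%, beside the same 44.2%). FOXA1, a pioneer factor that opens chromatin at prostate enhancers, had 718 (666.4 to 772.5), or 163 per kb. MED1 had 177 and GRHL2 129, or 20.6 and 21.3 per kb, both below the 31.7 of GATA2. The other 7 had fewer than 10, with 8 each for HOXB13, ETV1 and TLE3, 7 for NCOA3, 3 for NCOA2, 2 for NCOA1 and 0 for ERG. Of 4 endoderm partners of GATA6, SOX7 had 13, HNF4A 1, and FOXA2 and SOX17 were at 0. These are listed counts as well, and with both settings named above they would come from the strand opposite to each gene.

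**Figure D4:**
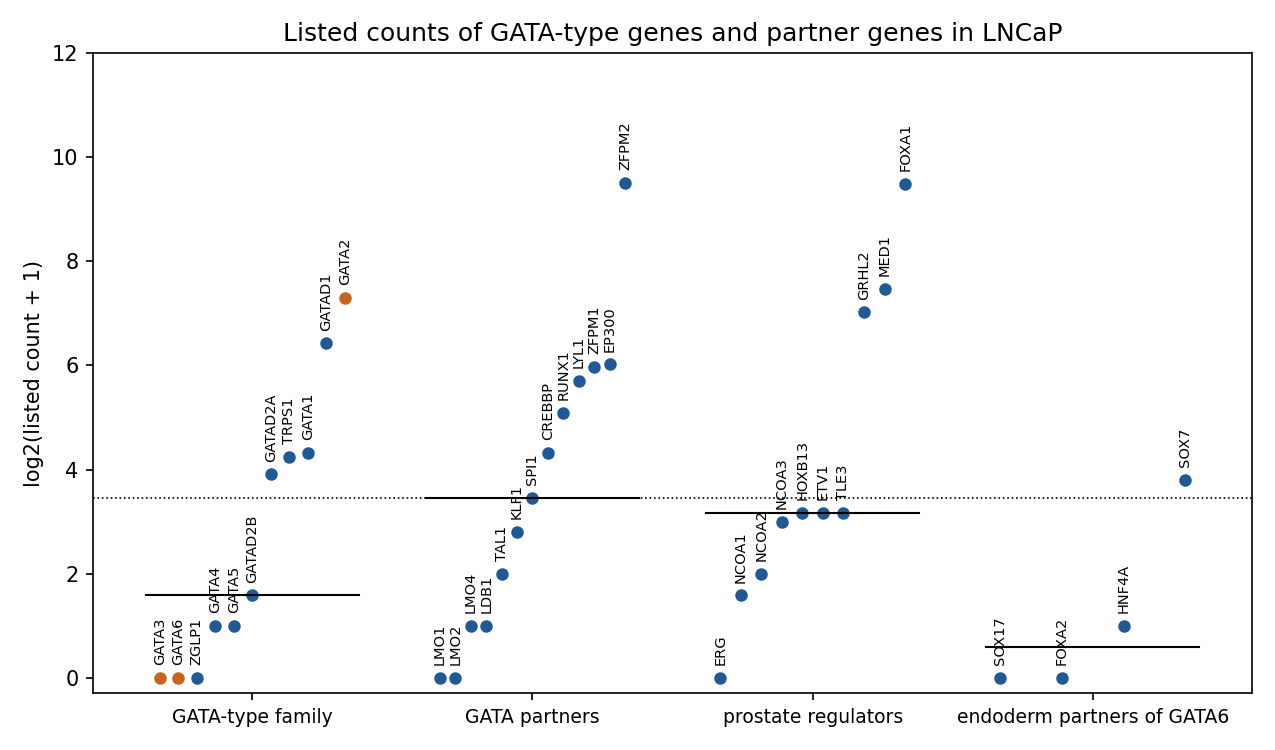
log2(listed count + 1) of each gene (points, sorted by count within a list, GATA2, GATA3 and GATA6 in orange) in the 4 lists, with the median count of each list (horizontal line) and 10 counts (dotted line). By listed count, GATA2 (156) is the highest of the GATA-type genes listed, and ZFPM2 (728) and FOXA1 (718) are the highest of their lists. If the strands are turned, this is the order of the strands opposite to these genes.

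Of the genes in these lists other than the 3 GATA genes, 5 have an antisense gene by name and none of these pairs is divergent or shares exonic nucleotides. TRPS1-AS1 had 62 listed counts beside 18 for TRPS1, and ZFPM1-AS1 had 36 beside 62 for ZFPM1. ZFPM2-AS1 had 9 beside 728 for ZFPM2 and EP300-AS1 had 5 beside 64 for EP300. HNF4A-AS1 was at 0 beside 1 for HNF4A. Among these 5 pairs the antisense gene had the higher listed count at 1, TRPS1, or 20%, beside 50.2% over all pairs with unequal counts and 41.9% over those that are not divergent and share no exonic nucleotide. If the strands are turned, the strand of the antisense gene held more of the counted read pairs at the other 4, on exons of the sense gene.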

How the data were processed

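Per the labels and the methods, the authors used Trimmomatic 0.30 for trimming, TopHat 2.0.12 with Bowtie2 2.2.3 for alignment to hg19, and htseq-count of HTSeq 0.6.1p1 for counting. They deposited raw counts without normalization, both replicates in 1 column, so that comparisons between replicates and leaving out a replicate were not possible. The strand settings are given in the text. The annotation used for counting was not used here. Identifiers were matched without version to GENCODE release 44 mapped to GRCh37 (55538 of 57820 Ensembl identifiers, all 6 members). Its exons may differ from those the authors counted on, which affects lengths and shared nucleotides but no count. Values per kb use the union of annotated exons. CPM uses the 9495309 pairs on genes, of which 3 genes held 48.5%. Intervals (Poisson, Clopper-Pearson) are exact, and cover counting error only, because PCR copies of a molecule cannot be told apart. With 1 condition in 1 column no test was made.

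Members and lists were chosen with earlier results of these data known. Genes named are the 6 members, the listed partner genes, genes within 10000 nt of a member and the 3 most similar pairs per locus. The comparison of rows opposite genes at 0 and the other named antisense genes of the lists were added after the counts were seen. The antisense pairs given beside the strand settings were also picked after the counts were seen. PECAM1 was without a matched row, and some genes of the lists are not reported here. Alternatives tried were the length, the library size, the minimum count, the distance of start sites and the transcripts used. The interval and geometry functions were tested on simulated data. Work used Python 3.11.15 with numpy 2.4.6, scipy 1.17.1 and matplotlib 3.10.9.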

Additional observations from a re-analysis of the deposited data

How the results depend on the processing

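The listed share of GATA2-AS1 in the summed count of its locus moved from 28.1% to 39.8% per kb of exonic length, to 40.1% per kb of exonic length not opposite other exons, and to 47.3% per kb of the longest transcript, where the ratio of GATA2 to GATA2-AS1, 1.11 (0.824 to 1.52), no longer differed from equality beyond counting error. If each count comes from the opposite strand, the strand of GATA2-AS1 held 71.9%, 60.2%, 59.9% and 52.7%, counted on exons of GATA2. The listed share of GATA6-AS1 was 100% under both length settings, from 4 counts. If the strands are turned, the strand of GATA6-AS1 held 0%, counted on exons of GATA6. The shared exonic nucleotides of GATA2 and GATA6 with their antisense genes fell from 78 and 94 to 0 with the longest transcript of each gene, and were 0 for GATA3 in both. Without the 3 highest genes in the library size GATA2 had 31.9 CPM and GATA2-AS1 12.5 CPM, and with all uniquely placed pairs 1.05 and 0.410 CPM. Over all antisense pairs with unequal counts, the antisense gene was listed higher in 50.2%, in 54.3% with a summed count of at least 10 and in 58.5% with at least 50; the cause was not tested. If each count comes from the opposite strand, the strand of the antisense gene held more in 49.8%, 45.7% and 41.5%. Start sites at most 1000 or 10000 nt apart gave 584 or 824 divergent pairs in place of 740. The antisense gene was listed higher in 49.3% or 49.4% of those with unequal counts. If turned, the strand of the antisense gene held more in 50.7% or 50.6%. No paired analysis was possible because both replicates are in 1 column of a single condition. Depth limits the GATA6 pair, with 4 counts, and the GATA3 pair, with none.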
